A study of Homo sapiens with 4 samples.

Results

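PEG10 and 8 other imprinted genes were followed in 786-O renal carcinoma cells with and without restored VHL. The 9 members are PEG10, SGCE, MEST, PHLDA2, PLAGL1, GRB10, CDKN1C, SNRPN and NDN, out of 12912 genes in the count table. They were chosen from fold changes of this same contrast, in which PEG10 is among the strongest falls and SGCE is its neighbor, so every value of the members below is a description without a test. Rows were found for 7 of the 9, and all 7 passed the filter on low counts; MEST and PHLDA2 were not analysed here.

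786-O is a human clear cell renal carcinoma line without working VHL, the substrate receptor of a ubiquitin ligase that marks HIF alpha subunits for degradation. Both sublines carried a triple reporter of GFP, luciferase and thymidine kinase, and 786-O-VHL cells also carried HA-tagged wild-type VHL from a retroviral vector with a puromycin marker. Whether 786-O-Ctrl cells carried the empty vector was not given in the sources used here. Each group held 2 libraries, with RNA extracted in duplicate from 1 subline per group. Nothing states that the duplicates were separate cultures, so p-values measure only the spread between these samples, which may be technical, and a difference due to VHL and one due to the history of a subline cannot be told apart. The 786-O-Ctrl libraries held 22141263 and 15714166 counts and are called deeper and shallower here. Replicates 1 and 2 of 786-O-VHL held 2807779 and 16114120 counts, so replicate 1 of 786-O-VHL had the least depth. Levels are CPM, the counts of a gene divided by its library's TMM-scaled total in units of 1e6. The limit behind a count of 0 is 3 counts, or 0.142, 0.199, 1.02 and 0.178 CPM in the same order, and these limits cover counting error only.

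Imprinted genes are expressed mainly from the allele of 1 parent, a state kept by DNA methylation at imprinting control regions that is copied when DNA replicates. PEG10 derives from the gag and pol genes of a retroelement, keeps a ribosomal frameshift between its reading frames, and is needed for the mouse placenta. Many imprinted genes act on growth: GRB10 and CDKN1C restrain it, and PEG10 is raised in several cancers.

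The labels were checked with VHL itself. VHL measured 42.9 and 43.9 CPM in the deeper and shallower 786-O-Ctrl libraries and 178 and 163 CPM in replicates 1 and 2 of 786-O-VHL. Its log2 fold change was 1.96 (SE 0.0706, edgeR FDR 2.86e-19), higher in both 786-O-VHL libraries. All 10 renal carcinoma markers had a row and were tested, and their summed level was 4260 and 4240 CPM in 786-O-Ctrl, against 3190 and 3100 CPM with VHL. VIM had the highest level per kb of exon among them, and 2 of the 10 were higher and 6 lower in 786-O-VHL at edgeR FDR < 0.05, beside 32.6% and 31.9% of all genes. CA12, a carbonic anhydrase, fell most, with a log2 fold change of -2.91 (SE 0.0972, edgeR FDR 5.94e-20). EPAS1 rose most, at 1.37 (SE 0.0613, edgeR FDR 3.22e-17). Markers of other cell types were low beside the renal list: 3 of 5 endothelial markers had a row and summed to at most 1.33 CPM in any library, 2 of 4 fibroblast markers summed to at most 8.14 CPM, and the 1 of 5 blood markers with a row, CD14, reached at most 1.02 CPM. TEK had the highest level per kb of KDR and TEK, as no exon length was at hand for PECAM1, the other endothelial marker with a row. PDGFRB had the highest level per kb of the fibroblast markers. No marker with a row was at 0 in all 4 libraries. PDGFRB measured 3.28 and 4.25 CPM in the deeper and shallower 786-O-Ctrl libraries and 5.77 and 6.12 CPM in replicates 1 and 2 of 786-O-VHL, and was called higher, with a log2 fold change of 0.70 (SE 0.247, edgeR FDR 0.0147), a call lost without the deeper 786-O-Ctrl library or replicate 2 of 786-O-VHL. The part of these markers in the changes of the imprinted genes was not tested.

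PEG10 (ENSG00000242265.5, chr7:94285637-94299007 on the plus strand of GRCh37) measured 834 and 785 CPM in the deeper and shallower 786-O-Ctrl libraries and 140 and 151 CPM in replicates 1 and 2 of 786-O-VHL. The groups did not overlap, and the libraries of each group lay close together. Means were 809 ± 34.4 CPM (SD, n = 2) and 145 ± 7.66 CPM (SD, n = 2), a ratio of 5.57 in favor of 786-O-Ctrl. The fitted log2 fold change was -2.46 (SE 0.0686). Of 12335 genes tested, 112 had a lower log2 fold change. In bulk RNA, fewer cells with PEG10 transcript and less transcript per cell cannot be told apart. PEG10 took 0.0793% and 0.0752% of all counts in the deeper and shallower 786-O-Ctrl libraries, against 0.0147% and 0.0157% in replicates 1 and 2 of 786-O-VHL.

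**Figure D1:**
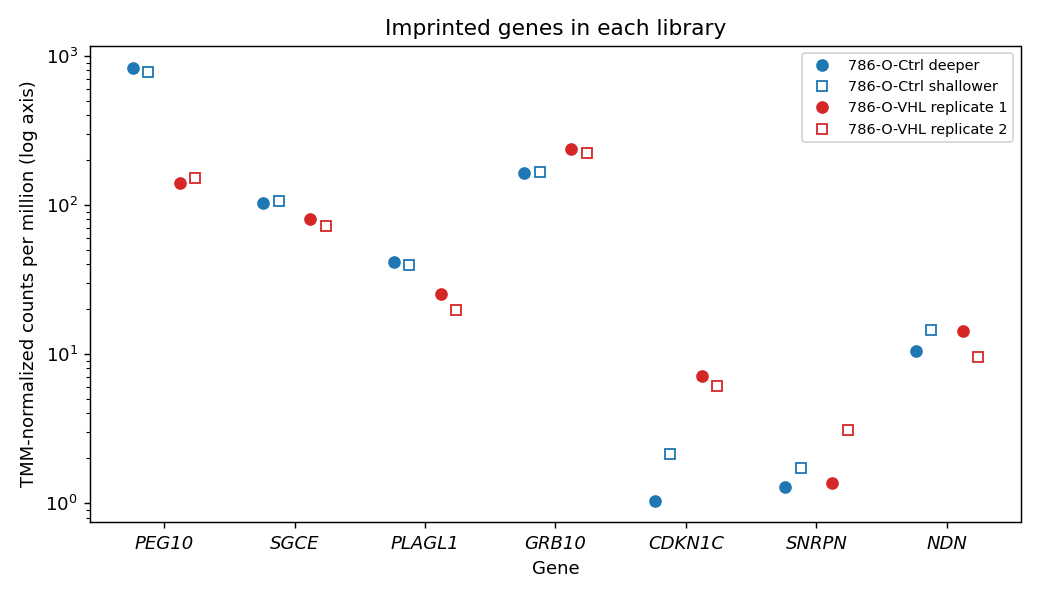
Level of each imprinted gene with a row, in TMM-normalized CPM on a log axis, with 1 point per library; blue is 786-O-Ctrl and red 786-O-VHL. PEG10 lies near 809 CPM in the blue group and 145 CPM in the red, while the points of SNRPN and NDN overlap between groups.

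SGCE encodes epsilon-sarcoglycan and is transcribed away from PEG10 on the other strand, at chr7:94153516-94285884. The annotated spans of the genes share 248 bases, of which 219 are exonic in both. Strand use in counting was not given in the sources used here, so reads from the shared bases cannot be assigned to either gene with certainty. SGCE (ENSG00000127990.18) measured 103 and 107 CPM in the deeper and shallower 786-O-Ctrl libraries and 80.4 and 72.0 CPM in replicates 1 and 2 of 786-O-VHL. The groups did not overlap. The log2 fold change was -0.50 (SE 0.0722), far smaller in size than that of PEG10.

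Levels of these genes were compared per kb of exon. With the union of annotated exons as length, PEG10 stood at 25.2 and 22.8 times SGCE in the deeper and shallower 786-O-Ctrl libraries and at 5.43 and 6.53 times in replicates 1 and 2 of 786-O-VHL. The union is 6689 bases for PEG10 and 20876 for SGCE, against 2585 and 1868 bases for their canonical transcripts. With the canonical transcript as length, a scale chosen after the data were seen, the same ratios were 5.84, 5.29, 1.26 and 1.51. The height of the ratio therefore rests on the gene model, whereas its fall between groups does not use length. By the union, PEG10 ranked 282 of 12749 genes in 786-O-Ctrl and 1934 with VHL; by the canonical transcript it ranked 191 and 1229 of 12713.

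PLAGL1, a zinc finger transcription factor, measured 41.3 and 39.3 CPM in the deeper and shallower 786-O-Ctrl libraries and 25.4 and 19.7 CPM in replicates 1 and 2 of 786-O-VHL. Its libraries did not overlap between groups, and the log2 fold change was -0.95 (SE 0.112). PLAGL1 (ENSG00000118495.19, chr6:144261437-144385736, minus strand) shares 289 exonic bases on the same strand with HYMAI, a gene not analysed here.

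GRB10, an adaptor that binds and restrains the insulin and IGF1 receptors, went the other way. It measured 165 and 167 CPM in the deeper and shallower 786-O-Ctrl libraries and 236 and 224 CPM in replicates 1 and 2 of 786-O-VHL. Its log2 fold change was 0.46 (SE 0.0633). GRB10 (ENSG00000106070.19) lies at chr7:50657760-50861159 on the minus strand. Of its receptors, INSR had 2 and 5 counts in 786-O-Ctrl, or 0.095 and 0.332 CPM, and 4.75 and 3.80 CPM in replicates 1 and 2 of 786-O-VHL. INSR was called higher (log2 fold change 4.30, SE 0.5, edgeR FDR 1.72e-08), with a value of 3.56 without the deeper and 5.28 without the shallower 786-O-Ctrl library. IGF1R gave a log2 fold change of 0.13 (SE 0.0986, edgeR FDR 0.26) and was not called.

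CDKN1C encodes the cyclin-dependent kinase inhibitor p57. It measured 1.04 and 2.13 CPM in the deeper and shallower 786-O-Ctrl libraries, from 22 and 32 counts, and 7.12 and 6.06 CPM in replicates 1 and 2 of 786-O-VHL, from 21 and 102 counts. The 786-O-VHL libraries were both above the 786-O-Ctrl libraries, and the log2 fold change was 2.05 (SE 0.313). Without the deeper or the shallower 786-O-Ctrl library it was 1.57 and 2.59. CDKN1C (ENSG00000129757.13) lies at chr11:2904443-2907005 on the minus strand.

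SNRPN and NDN lie on chromosome 15 in the region tied to Prader-Willi syndrome. SNRPN, which encodes a spliceosomal Sm protein, had 27, 26, 4 and 52 counts in the deeper and shallower 786-O-Ctrl libraries and replicates 1 and 2 of 786-O-VHL, or 1.28, 1.73, 1.36 and 3.09 CPM. The groups overlapped. The log2 fold change of 0.88 (SE 0.368) rested on replicate 2 of 786-O-VHL and was -0.13 without it. SNRPN (ENSG00000128739.22, chr15:25068784-25223870, plus strand) shares 813 exonic bases with SNURF on the same strand. NDN, a MAGE family protein, measured 10.4 and 14.5 CPM in the deeper and shallower 786-O-Ctrl libraries and 14.2 and 9.62 CPM in replicates 1 and 2 of 786-O-VHL. Its libraries overlapped too, and the log2 fold change was -0.21 (SE 0.188). NDN (ENSG00000182636.7) lies at chr15:23930547-23932452 on the minus strand.

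**Figure D2:**
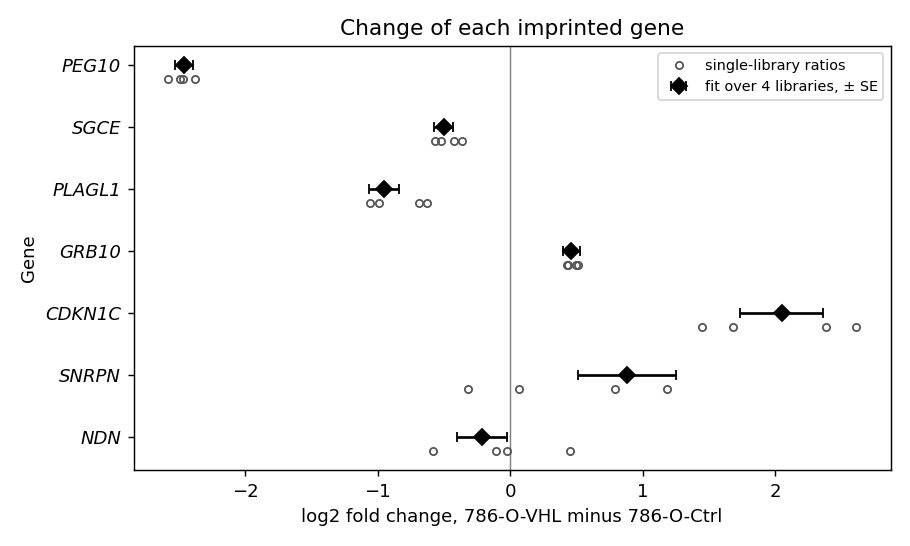
Log2 fold change of each imprinted gene, 786-O-VHL minus 786-O-Ctrl; diamonds are the fit over all 4 libraries with its SE, open circles the 4 ratios of single libraries. The ratios of PEG10 run from -2.58 to -2.38, while those of SNRPN and NDN lie on both sides of 0.

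At edgeR FDR < 0.05, 3 of the 7 members with a row were higher and 3 lower in 786-O-VHL, beside 32.6% and 31.9% of all 12335 genes tested. At over 4-fold with edgeR FDR < 0.01, 1 member was higher and 1 lower, beside 2.92% and 1.54% of all genes. The 1 higher past 4-fold was CDKN1C. It fell below 4-fold without the deeper 786-O-Ctrl library and, at a log2 fold change of 1.96, with a prior count of 2. The 3 higher include SNRPN, whose sign turned without replicate 2 of 786-O-VHL. Nothing is read from these counts, since the contrast chose the members.

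Promoter windows from RefSeq (GRCh38.p14) were matched for 5 of the 9 members: MEST, PLAGL1, GRB10, SNRPN and NDN. PEG10, SGCE, PHLDA2 and CDKN1C had no entry. Shown are 1 member that was lower, 1 that was higher and 1 whose groups overlapped. Each is given by its window of 300 bases with the most CpG, 5′ to 3′, with CpG in capitals. The choice used the number of CpG alone. Whether a printed window lies in an imprinting control region was not checked. The windows lie at chr6:144008210-144008509 for PLAGL1, chr7:50792825-50793124 for GRB10 and chr15:23687256-23687555 for NDN, all on the minus strand.
PLAGL1: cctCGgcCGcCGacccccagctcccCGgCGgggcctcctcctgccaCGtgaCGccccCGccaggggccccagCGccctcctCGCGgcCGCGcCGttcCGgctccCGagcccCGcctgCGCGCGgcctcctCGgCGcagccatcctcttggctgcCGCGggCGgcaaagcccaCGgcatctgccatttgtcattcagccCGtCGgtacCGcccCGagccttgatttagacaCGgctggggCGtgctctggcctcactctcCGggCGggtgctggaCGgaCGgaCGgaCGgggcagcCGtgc
GRB10: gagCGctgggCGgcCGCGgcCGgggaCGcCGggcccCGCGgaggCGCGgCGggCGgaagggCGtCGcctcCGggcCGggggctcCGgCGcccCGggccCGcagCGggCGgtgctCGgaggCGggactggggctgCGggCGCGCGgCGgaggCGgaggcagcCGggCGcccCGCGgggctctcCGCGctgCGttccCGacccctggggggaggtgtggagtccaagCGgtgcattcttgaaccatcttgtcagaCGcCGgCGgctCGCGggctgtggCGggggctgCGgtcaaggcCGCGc
NDN: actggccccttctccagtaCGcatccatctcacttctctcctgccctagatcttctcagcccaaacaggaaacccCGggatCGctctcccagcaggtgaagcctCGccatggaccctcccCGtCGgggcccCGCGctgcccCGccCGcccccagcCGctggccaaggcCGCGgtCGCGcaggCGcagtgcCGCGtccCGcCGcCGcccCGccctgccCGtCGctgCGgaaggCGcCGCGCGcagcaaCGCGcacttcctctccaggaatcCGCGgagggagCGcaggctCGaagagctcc

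They hold 39, 49 and 35 CpG. The PLAGL1 and GRB10 windows were picked as the richest in CpG of 5 each, so these numbers are high by choice; NDN had 1 window. Motifs were counted on both strands. The HIF core motif ACGTG occurs in 21.4% of all windows. Its variant with a leading G, spelled GCGTG, occurs in 36.5%. The E-box, spelled CACGTG, occurs in 7.26%, and each E-box also counts as 2 HIF core motifs, 1 per strand. The PLAGL1 window held 2 HIF core motifs, 1 of the variant and 1 E-box, and the windows of GRB10 and NDN held 0 of each. This holds for the printed windows alone: of the 5 windows each of PLAGL1 and GRB10, 2 held the variant in either gene, as did 3 of 4 windows of SNRPN. No methylation or binding was measured here, and a match is a description only.

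The tested genes nearest to PEG10 and SGCE on chromosome 7 moved in both directions. Of these, PDK4 lay farthest from PEG10, at a gap of 913804 bases. Toward lower coordinates lie CASD1, BET1 and GNG11. CASD1, which acetylates sialic acid and whose span overlaps that of SGCE on the other strand, was not called (log2 fold change 0.17, SE 0.123, edgeR FDR 0.22). BET1, a vesicle transport SNARE, was higher at 0.58 (SE 0.0778, edgeR FDR 2.4e-07). GNG11, a G protein gamma subunit, gave -0.04 (SE 0.0663, edgeR FDR 0.613). On the other side, PPP1R9A, which is itself imprinted in some tissues, was higher at 0.42 (SE 0.0971, edgeR FDR 0.000431). PON2, a paraoxonase, was lower at -0.71 (SE 0.0741, edgeR FDR 2.36e-09), and PDK4, a pyruvate dehydrogenase kinase, was higher at 1.79 (SE 0.333, edgeR FDR 3.35e-05), from 14 to 76 counts per library and with a range of 1.49 to 2.85 over the alternatives.

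**Figure D3:**
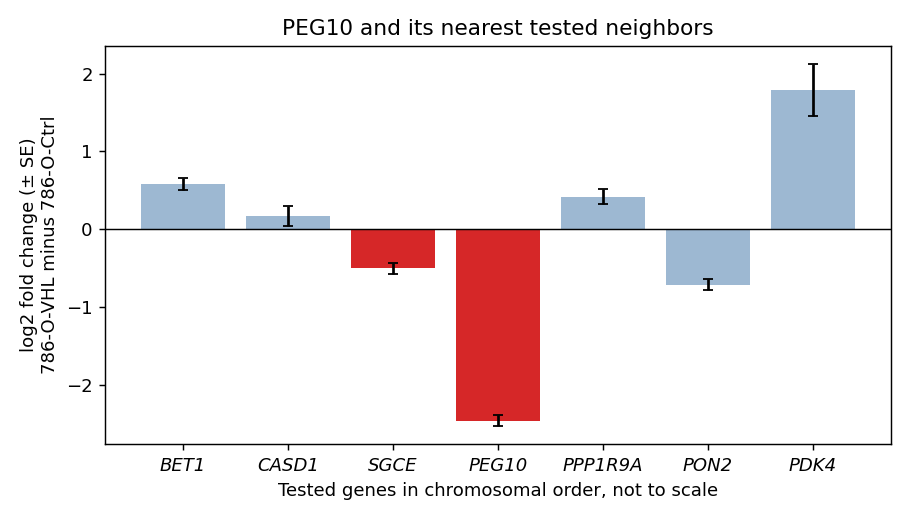
Log2 fold change, 786-O-VHL minus 786-O-Ctrl, of PEG10 and the 3 nearest tested genes on either side, in chromosomal order and not to scale; bars start at 0 and error bars are SE. PEG10 at -2.46 stands beside SGCE at -0.50 and PPP1R9A at 0.42.

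Over the 3 nearest tested genes on either side of each member there were 30 different genes besides members. Of these, 11 were higher and 12 lower at edgeR FDR < 0.05, or 36.7% and 40.0% beside 32.6% and 31.9% of all genes, and their median log2 fold change was 0.03, beside 0.02 over all genes. None passed 4-fold with edgeR FDR < 0.01. Members met on the way were PEG10 and SGCE, and SNRPN and NDN. The highest level per kb of exon was that of SF3B5, a splicing factor subunit next to PLAGL1. By the canonical transcript it was that of SEC61G, the next tested gene above GRB10 but 3958784 bases from it. Nearest tested genes were thus not always close: the gaps beside GRB10 reached 4571871 bases.

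Of 60 other imprinted genes, 23 had a row and 22 were tested. The list takes genes with accepted parent-of-origin expression in at least some tissue or isoform. Whether they are expressed from 1 allele in 786-O was not measured here. At edgeR FDR < 0.05, 6 were higher and 6 lower, shares of 27.3% and 27.3% beside 32.6% and 31.9% of all genes, and the median log2 fold change was -0.13, beside 0.02. TP73, a p53 relative, measured 3.23 and 3.99 CPM in 786-O-Ctrl, against 0 and 0.713 CPM in replicates 1 and 2 of 786-O-VHL, and was the 1 gene past 4-fold, at -2.56 (SE 0.45, edgeR FDR 1.46e-05). WT1, a zinc finger factor of kidney development, was lower at -2.0 (SE 0.16, edgeR FDR 1.03e-11), and its mean CPM was 3.97 times as high in 786-O-Ctrl. FAM50B was lower at -0.75 (edgeR FDR 0.0122) and OSBPL5, a lipid transfer protein, at -0.65 (edgeR FDR 1.59e-07). SLC22A18, a transporter beside CDKN1C, was higher at 1.32 (SE 0.191, edgeR FDR 7.67e-07), as were ZNF597 at 0.85 (edgeR FDR 0.00322) and NAA60 at 0.55 (edgeR FDR 9.33e-08). SLC22A18 is listed under 2 Ensembl identifiers with the same symbol, of which the one with more counts is given, and reads are uncertain between them. GNAS, the stimulatory G protein alpha subunit, had the highest level per kb on either length and was lower at -0.23 (edgeR FDR 0.000964). With DESeq2, or without the deeper 786-O-Ctrl library, 3 of the list were higher. Without replicate 2 of 786-O-VHL, TP73 gave -8.54, its group then standing at 0 counts, FAM50B gave -2.33 and ZNF597 lost its call. GNAS and ZNF597 lost theirs without the deeper 786-O-Ctrl library.

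Of 20 genes that write, keep, read or erase the methylation of imprints, 17 were tested: 6 were higher and 5 lower, or 35.3% and 29.4%, near the 32.6% and 31.9% of all genes, with a median of 0.10, beside 0.02. UHRF1, which recognizes hemimethylated DNA, measured 220 and 202 CPM in 786-O-Ctrl, against 48.2 and 54.0 CPM with VHL, past 4-fold lower by a narrow margin (log2 fold change -2.0, SE 0.0763, edgeR FDR 9.13e-19); over the alternatives it ran from -2.14 to -1.87, so in some it was below 4-fold. HELLS, a chromatin remodeler, was lower at -1.94 (SE 0.132, edgeR FDR 2.97e-13). DNMT1, the maintenance methyltransferase, was lower at -1.13 (SE 0.0659, edgeR FDR 1.05e-14). TRIM28, the corepressor with the highest level per kb of the list, was lower at -0.92 (edgeR FDR 4.15e-13). The de novo methyltransferases DNMT3B and DNMT3A were higher, at 1.13 (edgeR FDR 5.99e-13) and 0.95 (edgeR FDR 3.34e-06), and so was ARID4A at 0.82 (edgeR FDR 3.52e-07).

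Of 19 other genes that descend from the gag of retroelements, 10 were tested: 6 were lower and 2 higher, beside 31.9% lower and 32.6% higher over all genes, with a median of -0.36 beside 0.02. RTL3 was past 4-fold lower at -2.30 (SE 0.362, edgeR FDR 2.93e-06). RTL8C had the highest level per kb in 786-O-Ctrl, at 114 CPM per kb. In 786-O-VHL it stood at 53.1 CPM per kb, below PNMA1 at 60.6. RTL8C was lower at -1.12 (SE 0.0704, edgeR FDR 6.36e-14), with RTL8B at -0.67 (edgeR FDR 5e-05) and LDOC1 at -0.38 (edgeR FDR 0.000194). RTL8A, RTL8B and RTL8C are close copies whose reads are uncertain between them. PNMA1 was higher at 0.40 (edgeR FDR 9.43e-06) and RTL6 at 0.18 (edgeR FDR 0.0215). Without replicate 2 of 786-O-VHL, 3 were lower and 1 was higher, RTL3 gave -3.76 and RTL8B lost its call. Without either 786-O-Ctrl library, or with DESeq2, 1 was higher, and RTL6 lost its call.

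For the partners of SGCE, 9 of 12 genes of the sarcoglycan and dystrophin complex were tested, 4 higher and 4 lower, or 44.4% each, beside 32.6% and 31.9% of all genes, with a median of 0.17, beside 0.02. DAG1, dystroglycan, had the highest level per kb in 786-O-Ctrl, though not in 786-O-VHL, and was lower at -0.84 (SE 0.0662, edgeR FDR 7.31e-12). DTNA, alpha-dystrobrevin, was lower at -1.78 (edgeR FDR 7.15e-05) and DMD, dystrophin, at -0.44 (edgeR FDR 0.0107). SSPN, sarcospan, was higher at 1.30 (edgeR FDR 1.11e-06) and DTNB, beta-dystrobrevin, at 1.00 (edgeR FDR 1.49e-05). With DESeq2, or without the deeper or the shallower 786-O-Ctrl library, 2 were higher, and without replicate 2 of 786-O-VHL 2 were lower. DMD lost its call without any 1 of these 3 libraries.

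Paralogs of the members were tested for 13 of 16 genes, 4 higher and 5 lower, or 30.8% and 38.5%, beside 32.6% and 31.9% of all genes, with a median of -0.17, beside 0.02. Among relatives of NDN, MAGED1 was lower at -1.80 (SE 0.0747, edgeR FDR 6.45e-18), MAGEH1 at -1.21 (edgeR FDR 5.95e-06) and MAGEE1 at -0.81 (edgeR FDR 0.00164). PHLDA1, a relative of PHLDA2, was higher at 1.31 (SE 0.0692, edgeR FDR 1.19e-15) and GRB7, a relative of GRB10, at 1.27 (edgeR FDR 1.02e-06). CDKN1A, which encodes p21, was higher at 0.61 (SE 0.0706, edgeR FDR 1.73e-08) and had the highest level per kb of exon. By the canonical transcript that was SNRPB in 786-O-Ctrl and CDKN1A in 786-O-VHL.

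The Sm core proteins, relatives of the product of SNRPN, were lower throughout: 7 of 7 tested, beside 31.9% of all genes, with a median of -0.72, beside 0.02. SNRPD3 fell most, at -1.28 (SE 0.107, edgeR FDR 2.26e-11), followed by SNRPF at -0.93 (edgeR FDR 3.9e-09) and SNRPD1 at -0.88 (edgeR FDR 3.01e-10). SNRPD2 had the highest level per kb and was lower at -0.33 (edgeR FDR 7.12e-05). SNRPB is counted both here and among the paralogs of members.

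**Figure D4:**
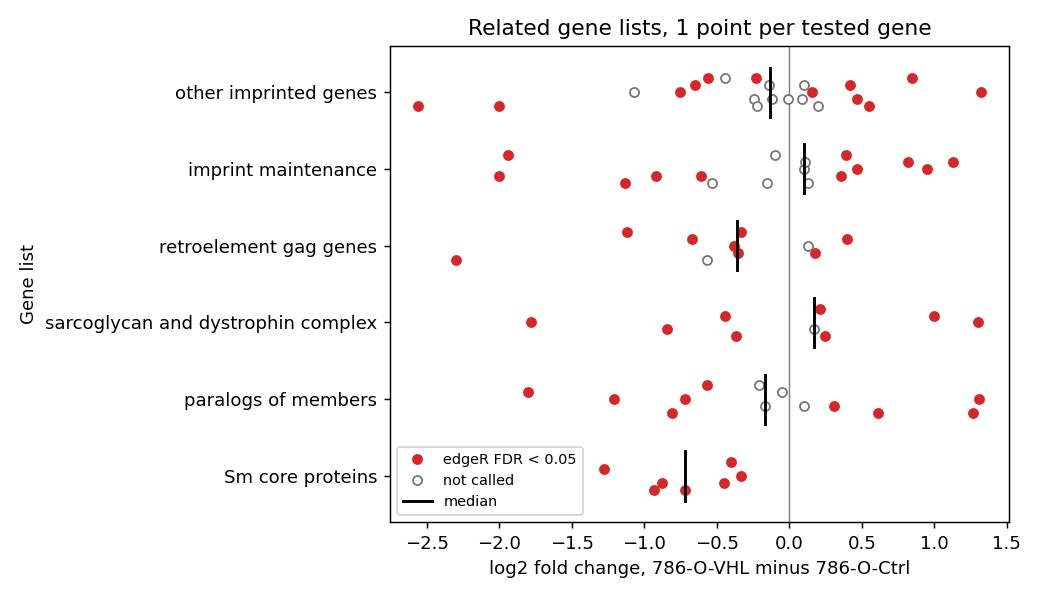
Log2 fold change, 786-O-VHL minus 786-O-Ctrl, of each tested gene of 6 related lists; filled points passed edgeR FDR < 0.05, open points did not, and black lines are medians. The 7 Sm genes all lie below 0, and the other lists spread to both sides.

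The 5 genes whose profile over the 4 libraries was most like that of PEG10, by Euclidean distance of log2 CPM centred on each gene's mean, were CLSPN, ZWINT, E2F1, GINS4 and RRM2. Their log2 fold changes were -2.52, -2.43, -2.59, -2.29 and -2.64, beside -2.46 for PEG10. These genes were chosen for their likeness over the same libraries, so the closeness of these values follows from the choice. RRM2 measured 246 and 245 CPM in 786-O-Ctrl, against 40.0 and 39.1 CPM in replicates 1 and 2 of 786-O-VHL.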

How the data were processed

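RNA of 786-O cells was sequenced without (786-O-Ctrl) and with restored VHL (786-O-VHL), 2 libraries each. The authors deposited whole-number read counts per gene; the submitters' processing notes name CASAVA, STAR and hg19, and the counting tool, strand use and annotation were not given in the sources used here. Both 786-O-Ctrl columns carry the same number, so these libraries were told apart by depth only. No column of per-sample values was left unused (0). Replicates differed by more than sampling noise (chi-square per degree of freedom 2.25 and 2.76).

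Counts were tested with edgeR 4.0.16 (R 4.3.3; filterByExpr with a minimum count of 10, TMM, quasi-likelihood F test, Benjamini-Hochberg over 12335 genes; 577 of 12912 were removed), a fit tested on simulated data. DESeq2 1.42.0 and limma 3.58.1 were alternatives, with other scalings, filters, thinning to the least depth and each library left out. A permutation test of 2 against 2 libraries gives no two-sided exact p below 0.333. Log2 CPM used a prior count of 2. Tables and figures were made with Python 3.11.15, pandas 2.3.3, NumPy 2.4.6 and matplotlib 3.10.9.

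Coordinates and exon lengths came from GENCODE v44 on GRCh37. The union of exons was the length for levels; the canonical transcript was added after the data were seen, because the union of SGCE is 20876 bases long. Members and lists were chosen with earlier results of these data known. Genes named were all members, VHL, INSR, IGF1R, all neighbors of PEG10 and SGCE, the 5 profiles nearest PEG10 and, of each list, genes past 4-fold with edgeR FDR < 0.01, up to 3 more per direction past FDR < 0.05 by size, and the gene with the highest level per length. The highest level per length was taken in 786-O-Ctrl. Of the other members' neighbors, those past 4-fold with FDR < 0.01 were named. 1 gene that this rule names is not reported here. SF3B5, SEC61G, CA12, EPAS1 and the markers VIM, TEK, PDGFRB and CD14 are named as the most abundant or most changed of their lists.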

Additional observations from a re-analysis of the deposited data

How the results depend on the processing

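No paired analysis was possible because both 786-O-Ctrl columns carry the same replicate number. Scaling by library totals alone moved the median log2 fold change of all genes from 0.02 to 0.15 and the split of calls from 4017 higher and 3939 lower (50.5% higher) to 5077 and 3097 (62.1% higher). The numbers of Sm, paralog and imprint maintenance genes called stayed within 1.5 times under all 11 settings, and so did those of all genes. The cause of the changes below was not tested, apart from thinning and leaving out a library, which reduce counts or samples by construction. With a library left out, the lone library of its group is assumed to vary like the other group.

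Of other imprinted genes, 3 were higher with DESeq2 and 3 after thinning, and 3 to 6 with a library left out. Of the gag genes, 1 was higher with DESeq2 and 1 after thinning; with a library left out, 1 to 3 were higher and 3 to 6 lower. Of the sarcoglycan and dystrophin genes, 2 were higher with DESeq2 and 2 were lower after thinning; with a library left out, 2 to 4 were higher and 2 to 4 lower. With the 5 nearest genes on either side, 15 of 49 neighbors were higher and 19 lower, against 11 and 12 of 30 with the 3 nearest.

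By library totals alone, the log2 fold changes of PEG10, SGCE and GRB10 were -2.33, -0.37 and 0.60. After thinning, those of PEG10, CDKN1C and SNRPN were -2.37, 2.87 and -0.96, the last a change of sign. With a library left out, the ranges were -2.54 to -2.43 for PEG10, -0.55 to -0.39 for SGCE, -1.03 to -0.67 for PLAGL1, 0.43 to 0.50 for GRB10, 1.57 to 2.59 for CDKN1C, -0.13 to 1.06 for SNRPN and -0.42 to 0.21 for NDN. The single-library ratios, chosen after seeing the data, gave for replicate 1 of 786-O-VHL against the deeper 786-O-Ctrl library -2.58 for PEG10, -0.36 for SGCE, -0.69 for PLAGL1, 0.51 for GRB10, 2.61 for CDKN1C, 0.07 for SNRPN and 0.45 for NDN. Against the shallower library, replicate 1 gave -0.42 for SGCE, -0.63 for PLAGL1 and -0.32 for SNRPN, and replicate 2 gave -2.38 for PEG10, 1.45 for CDKN1C and -0.58 for NDN. The sign of PEG10, SGCE, PLAGL1, GRB10 and CDKN1C was the same in every setting and ratio run. Of named genes called in edgeR, DMD kept its call in 6 of 12 alternatives, RTL6 in 7, ZNF597 and PDGFRB in 8, GNAS and SF3B5 in 10, LDOC1, RTL8B and PPP1R9A in 11, and FAM50B in 9 of 11. Depth limits members with few reads: SNRPN had 4 counts in replicate 1 of 786-O-VHL.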
